A study of Mus musculus with 72 samples.

Results

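Liver mRNA of mice that received 8 Gy was compared with liver mRNA of mice that received 4 Gy. The comparison was defined by dose and tissue alone and used 6 of the 72 arrays of the series, 3 mice a dose. Female C57BL/6 J mice aged 6 to 8 weeks were exposed once to X-rays over the whole body, and liver RNA was taken 48 h later from 1 mouse per array. All mice of both groups were irradiated, so the comparison shows the step from 4 to 8 Gy and not the effect of irradiation itself. The 4 Gy group consisted of mice 4, 14 and 24 and the 8 Gy group of mice 5, 15 and 25. The 12 other liver arrays, from mice at 0, 1, 2 and 12 Gy, were normalized and fitted with these 6 and lent their spread to the test. The series' design text names another organ, while the labels of these 6 arrays name the liver.

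Ionizing radiation breaks DNA. The breaks activate the kinases ATM and ATR, which stabilise the transcription factor p53, and p53 then switches on genes of cell cycle arrest, DNA repair and cell death. Hepatocytes, the secretory and metabolic cells that make up most of the liver, rarely divide. The lymphocytes that pass through the liver are far more sensitive to radiation. Red cell precursors, whose globin RNA reaches the liver with the blood, are sensitive as well. In whole tissue a loss of cells of one type and a lower amount of RNA per cell cannot be told apart.

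The array carried 56605 probes, and the values below are background-corrected, quantile-normalized spot intensities on the log2 scale. A probe was tested if it was well above background on at least 1 of the 18 liver arrays, which 38362 probes were. A probe counted as having passed at an adjusted p below 0.05 in limma, and as called if its absolute log2 fold change was also above 1. Between 46.2% and 52.0% of the spots were well above background on the 6 arrays, and none was saturated. *Alb*, the gene of albumin, lay at 18.73, 18.73 and 18.71 in the 4 Gy mice and at 18.69, 18.73 and 18.76 in the 8 Gy mice. All 15 hepatocyte genes were well above background in all 6 mice.

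The 6 arrays lay on 1 slide, but not in the same part of it. All 4 Gy arrays were in the first row of the slide and all 8 Gy arrays in the second, so that dose and row cannot be told apart. The scanner software marked 141 to 195 spots as outliers on the 4 Gy arrays and 288 to 333 on the 8 Gy arrays. On the 12 Gy array in the second row of the same slide it marked 255, and on the 2 Gy array in the first row 174. The part of the row in the results was not tested. All 0 Gy arrays lay on a different slide, and those of 12 Gy mice 16 and 26 on a further one. Levels at 0 and 12 Gy are thus set beside those at 4 and 8 Gy across slides. The 4 Gy mice were more alike than the 8 Gy mice, with Pearson correlations across probes of 0.991 to 0.993 within 4 Gy, 0.979 to 0.982 within 8 Gy and 0.981 to 0.987 between the doses. The median spread of a probe was 0.16 within 4 Gy and 0.23 within 8 Gy (SD of log2 intensity, n = 3 mice each). Mouse 25 differed from mice 5 and 15 of its own dose by medians of 0.27 and 0.27, and from the 4 Gy mice 4, 14 and 24 by 0.23, 0.21 and 0.27. It was thus no closer to the other 8 Gy mice than to the 4 Gy mice.

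The step from 4 to 8 Gy left liver mRNA largely within the spread between mice. Of the 38362 probes, 2 were called and the same 2 passed, which is 0.00521%. Both were higher at 8 Gy and neither carried a gene symbol. At an unadjusted p below 0.05 there were 4041 probes, or 10.5%, with 1864 (4.86%) higher and 2177 (5.67%) lower at 8 Gy. The share of 10.5% was above the 0.05 that the threshold alone would give, and its cause was not tested. The few calls thus do not show that liver mRNA was unchanged. The median log2 fold change over all probes was -0.0016. For probes well above background on all 6 arrays, of which there were 22747, the median standard error of the log2 fold change was 0.16 and the median 95% interval reached 0.35 to either side. A fold change above 1 on the log2 scale in either direction was estimated for 678 probes, and 79 of these were well above background on all 6 arrays, with 38 higher and 41 lower. In the same model 0.944% of probes were called at 4 Gy against 0 Gy and 2.21% at 8 Gy against 0 Gy. Those comparisons share their control arrays, which lay on another slide, so that dose and slide cannot be told apart in them. A larger count at 8 Gy does not show that a given gene differed between 4 and 8 Gy.

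**Figure D1:**
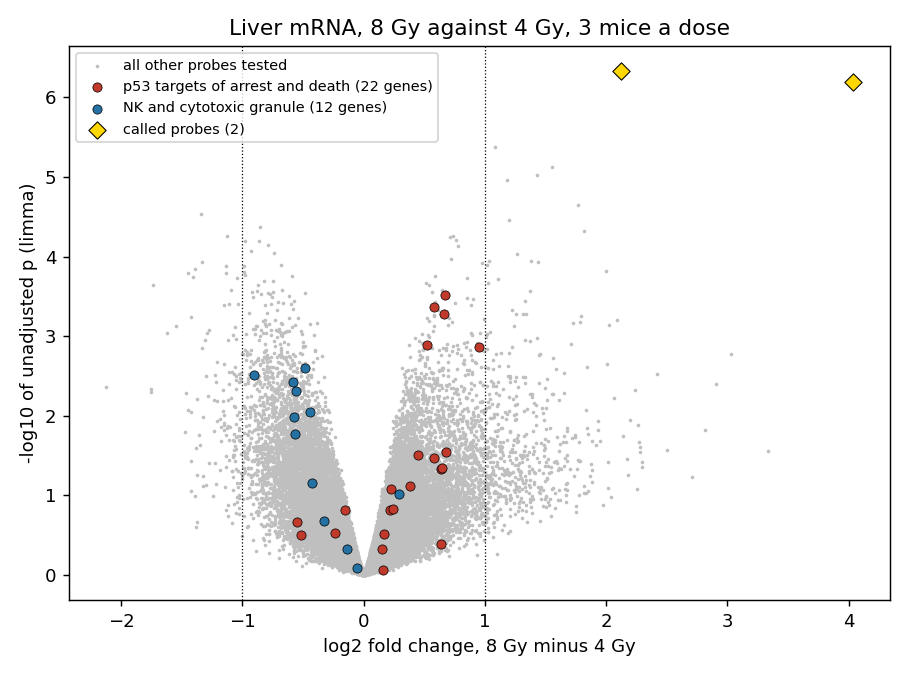
Log2 fold change of 8 Gy over 4 Gy (x axis) against the -log10 of the unadjusted limma p (y axis) for the 38362 probes tested, with 3 mice a dose. Yellow diamonds are the 2 called probes, red points the 22 p53 target genes and blue points the 12 NK cell and cytotoxic granule genes. None of the red or blue points passed after adjustment, 10 red points had an unadjusted p below 0.05 to the right of 0 and 7 blue points to the left of it.

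The first called probe, A_51_P109119, is annotated with the transcript AK017113. It lay at 4.47, 3.65 and 4.38 in 4 Gy mice 4, 14 and 24 and at 6.14 and 6.43 in 8 Gy mice 5 and 15. In mouse 25 its spot was marked as an outlier and set to missing. The probe was not well above background in any 4 Gy mouse and was at least 4.29-fold higher at 8 Gy (fitted log2 fold change 2.12, 95% interval 1.63 to 2.61, adjusted p = 0.0123). That limit allows for background alone, not for the spread between mice or the processing. With a normexp offset of 50 the fitted change was 0.91 (adjusted p = 0.0035), so that the probe passed but was not called. The 2 measured 8 Gy mice lay above all 4 Gy mice, but the mean was 4.16 at 0 Gy and 4.49 at 12 Gy, close to that at 4 Gy. With outlier spots kept, mouse 25 lay at 6.27, between the other 8 Gy mice, and the log2 fold change was 2.10, with an adjusted p of 0.216. The standard error then was 0.48 in place of 0.22. The other spot of this probe marked as an outlier was on a 2 Gy array, at 6.45 against 3.87 and 4.02 in the other 2 Gy mice, and the 2 Gy mice enter the shared spread. The call was also lost with the 6 arrays fitted alone (2.12, adjusted p = 0.303).

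The other called probe, A_55_P2716266, is annotated with the transcript ENSMUST00000188596.2. It lay at 0.79 and -0.53 in 4 Gy mice 4 and 14 and at 4.31, 4.06 and 4.12 in the 8 Gy mice, with the outlier spot of mouse 24 set to missing. No 8 Gy array had it well above background, so no fold is given (fitted log2 fold change 4.04, 95% interval 3.04 to 5.03, adjusted p = 0.0123). At 4 Gy 1 array had it well above background, and none did at 0 or 12 Gy. Without 4 Gy mouse 24 the probe was no longer tested, so that array alone had let it into the test. Its spot there was the one set to missing, and the levels compared were of arrays not well above background. The means were 3.01 at 0 Gy and 4.01 at 12 Gy. With outlier spots kept, mouse 24 lay at 6.84, above every 8 Gy mouse, and the probe was not called (log2 fold change 1.80, adjusted p = 0.622). From the scanner software's processed signal, quantile-normalized, its fitted change was -0.090 (adjusted p = 0.794). Both calls were lost with outlier spots kept.

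The calls moved with single mice. Without 8 Gy mouse 25, 24 probes were called, 18 higher and 6 lower, and without 8 Gy mouse 5 there were 11, of which 10 were higher. Without 8 Gy mouse 15 or 4 Gy mouse 4 there were 4 each. Without 4 Gy mouse 14 there was 1, and without 4 Gy mouse 24 there were 0, with 2798 probes at an unadjusted p below 0.05.

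The 4 probes next in the ranking were singled out after their values were seen. *Tmc7*, which encodes a transmembrane channel-like protein, lay at 8.15, 7.26 and 7.72 in the 4 Gy mice and at 9.19, 9.36 and 9.25 in the 8 Gy mice. All 8 Gy mice lay above all 4 Gy mice, with a log2 fold change of 1.55 (95% interval 1.06 to 2.05, adjusted p = 0.0705). The mean was 7.51 at 0 Gy and 9.27 at 12 Gy. It was called with a normexp offset of 50 (1.35, adjusted p = 0.0147), among probes well above background on all arrays of 4 or of 8 Gy (adjusted p = 0.0237), and without 4 Gy mouse 4 (1.78, adjusted p = 0.0267). *Ms4a10*, of the membrane-spanning 4-domain family, lay at 4.14, 4.61 and 4.49 at 4 Gy and at 5.89, 5.98 and 5.65 at 8 Gy. Its groups did not overlap either, but no 4 Gy array had it well above background. Against background it was at least 2.69-fold higher at 8 Gy (adjusted p = 0.0705). This limit equals the fitted log2 fold change of 1.43, whose 95% interval was 0.97 to 1.89. Its fitted change ran from 0.59 to 3.15 on the log2 scale over the main analysis and the alternatives, with adjusted p values from 0.0237 to 0.303. The lowest was among probes well above background on all arrays of 4 or of 8 Gy. *Ms4a10* met that filter only through the 8 Gy arrays, so the value is no separate support. Transcripts ENSMUST00000134686.1 and ENSMUST00000124404.7 had log2 fold changes of 1.08 and 1.18 (adjusted p = 0.0545 and 0.0705). Separation of this kind was common, since all 3 mice at 8 Gy lay above all 3 at 4 Gy for 8.44% of probes and below them for 9.51%.

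Gene lists were used to describe groups of genes by function and cell type, with 1 probe per gene, the brightest over the 18 liver arrays. The 34 lists held 630 genes, of which 605 were tested. No list gene passed, and the lowest adjusted p among them was 0.159. The counts below are therefore of members with an unadjusted p below 0.05, to be read against 4.86% higher and 5.67% lower over all probes. Members of a list share mice and regulators and are not independent of each other.

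**Figure D2:**
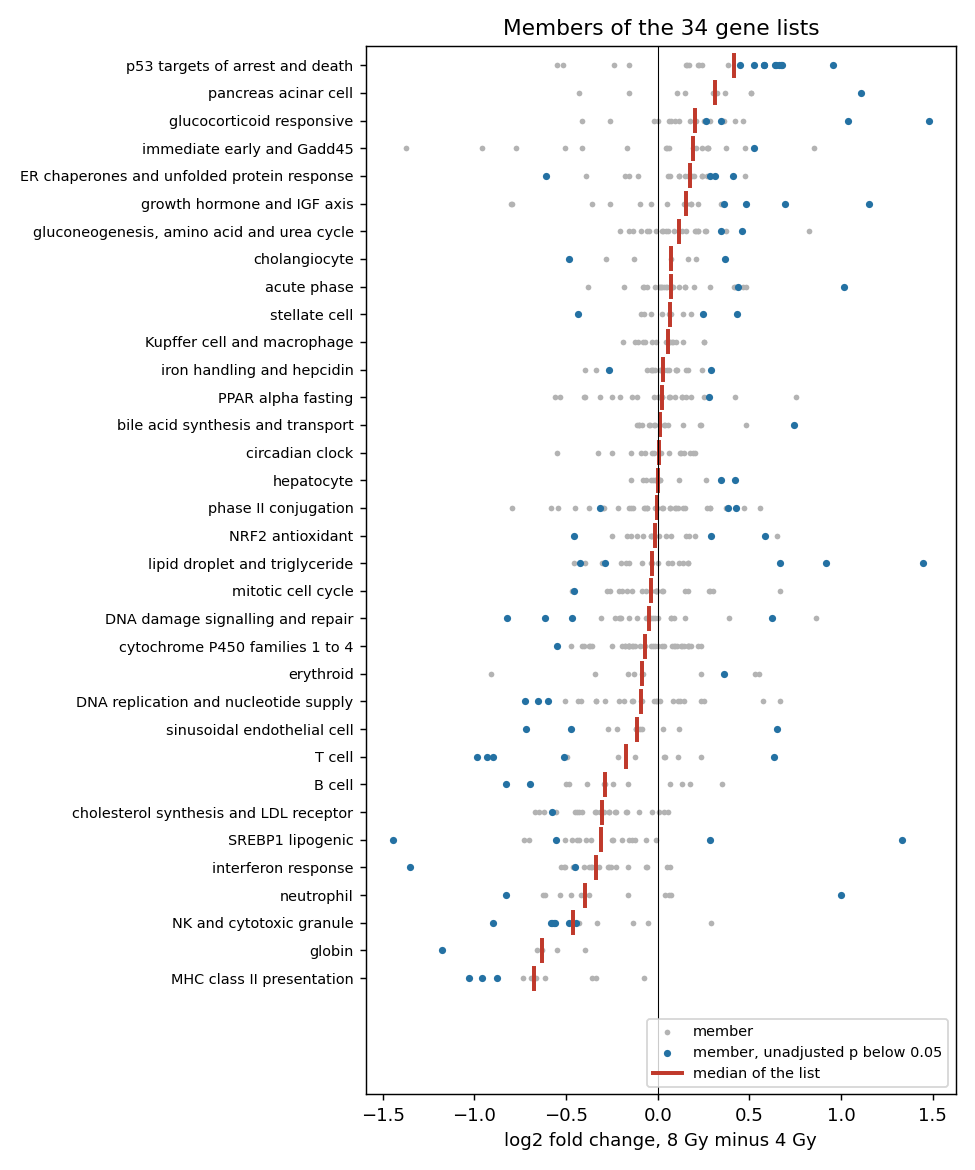
Log2 fold change of 8 Gy over 4 Gy (x axis) for each tested member of the 34 gene lists (rows, ordered by median). Grey and blue points are genes, blue where the unadjusted p was below 0.05, and red bars are list medians, from 0.41 for p53 targets to -0.68 for MHC class II presentation.

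The p53 targets had the highest median of all lists, 0.41, over 22 genes (-0.0016 over all probes). Of these, 10 had an unadjusted p below 0.05, all of them higher at 8 Gy. For 11 of 22 all 8 Gy mice lay above all 4 Gy mice, and for 1 below them (8.44% and 9.51% over all probes). None passed after adjustment. p53 binds DNA as a tetramer, at sites built of paired decamers. The 250 bases before the transcription start were searched for the p53 decamer consensus, which reads alike on both strands, in the RefSeq promoters of build GRCm38.p6. Of the 22 genes 18 had a promoter in that table, and 8 of these genes held a match, or 44.4%. Of all 32851 promoters, counted singly and not by gene, 7.13% held a match. A pair of matches at most 13 bases apart was held by 1 of these genes, *Cdkn1a*, and by 0.0639% of all promoters. The list was made of p53 targets, so the share of matches says nothing about the step from 4 to 8 Gy. A match is a stretch of letters and was not shown here to be bound. The stretches of the *Cdkn1a*, *Mdm2*, *Aen* and *Polk* promoters, which belong to genes described next, are shown 5′ to 3′ on the strand of the gene, with the decamer in capitals.
Cdkn1a, chr17:29090901-29090920, plus strand: ggtggGGACTAGCTTtctgg
Cdkn1a, chr17:29090923-29090942, plus strand: ttcagGAACATGTCTtgaca
Mdm2, chr10:117710930-117710949, minus strand: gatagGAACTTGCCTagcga
Aen, chr7:78895932-78895951, plus strand: aagccGGGCTTGTCCgggca
Polk, chr13:96519404-96519423, minus strand: agcttGAACTAGCCTcaaac

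*Cdkn1a* encodes p21, an inhibitor of cyclin-dependent kinases that halts the cell cycle. It lay at 10.68, 10.63 and 10.69 in the 4 Gy mice and at 11.23, 11.80 and 11.83 in the 8 Gy mice. The groups did not overlap, and the difference of 0.95 on the log2 scale had a 95% interval of 0.44 to 1.47 (adjusted p = 0.263). The means at 0 and 12 Gy were 6.47 and 12.79. The difference from 0 to 4 Gy was larger than that from 4 to 8 Gy, but the 0 Gy arrays lay on another slide. A dimmer probe of *Cdkn1a*, A_55_P1986282, went the other way, with -0.28 (adjusted p = 0.673). *Mdm2*, the ubiquitin ligase that degrades p53, lay at 11.89, 11.75 and 11.43 at 4 Gy and at 12.09, 12.45 and 12.51 at 8 Gy. Here too the groups did not overlap (log2 fold change 0.66, 95% interval 0.34 to 0.98, adjusted p = 0.215). Its mean was 10.80 at 0 Gy and 12.39 at 12 Gy, so the 8 Gy mean of 12.35 was close to that at 12 Gy. The dimmer probe of *Mdm2* had 0.14 (adjusted p = 0.856).

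Other members with the lowest p in this list were picked after their values were seen. *Phlda3*, an inhibitor of AKT, lay at 9.72, 9.86 and 10.01 at 4 Gy and at 10.30, 10.57 and 10.74 at 8 Gy (log2 fold change 0.67, 95% interval 0.37 to 0.98, adjusted p = 0.181). *Polk*, a DNA polymerase that copies past damaged bases, lay at 9.09, 9.05 and 9.19 at 4 Gy and at 9.65, 9.53 and 9.89 at 8 Gy (0.58, 0.31 to 0.85, adjusted p = 0.193). *Aen*, a nuclease of apoptosis, lay at 12.32, 12.30 and 12.27 at 4 Gy and at 12.82, 12.80 and 12.83 at 8 Gy. The spread of *Aen* within each dose was 0.03 or less (SD), and the 4 probes of *Aen* had log2 fold changes of 0.38, 0.52, 0.56 and 0.64. In all 3 genes the 8 Gy mice lay above the 4 Gy mice. *Trp53inp1*, *Ddit4l*, *Eda2r*, *Tnfrsf10b* and *Plk2* completed the 10, with log2 fold changes of 0.45 to 0.68. *Bbc3* and *Bax*, p53 targets that act in apoptosis at the mitochondrion, had -0.24 and 0.22, and *Gdf15* and *Btg2* spread over more than 2 log2 units at 8 Gy. The count of 10 was 5 without 4 Gy mouse 14 and 6 without 4 Gy mouse 4, and without 8 Gy mouse 15 it was 7 higher and 2 lower. The list median stayed between 0.29 and 0.56 in the main analysis and 16 alternatives. The summed level overlapped between the doses, at 11.24 to 11.53 in the 4 Gy mice and 11.33 to 11.92 in the 8 Gy mice.

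**Figure D3:**
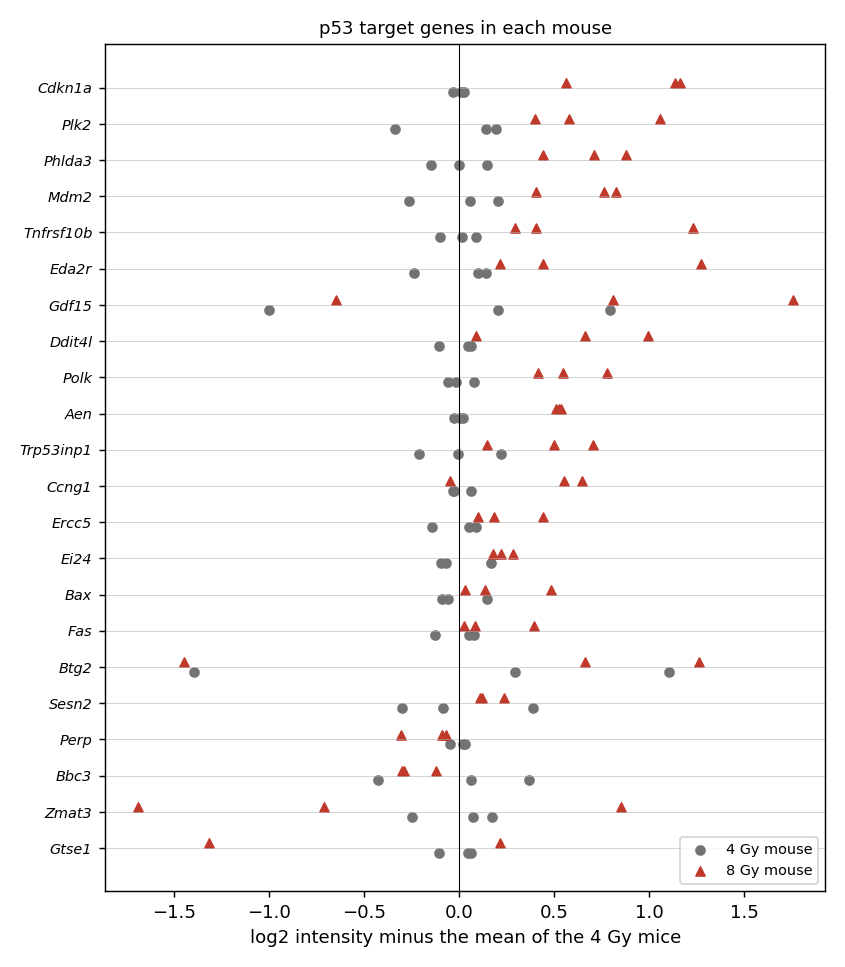
Log2 intensity minus the mean of the 4 Gy mice (x axis) for the 22 p53 target genes (rows, ordered by fold change). Grey circles are the 4 Gy mice and red triangles the 8 Gy mice. The triangles of *Cdkn1a*, *Plk2*, *Phlda3* and *Mdm2* all lie to the right of their circles, while *Gdf15* and *Btg2* overlap fully.

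No gene of cell division or DNA repair passed. Of 23 mitotic genes, 10 were measured at both doses. Another 9 were not well above background in any of the 6 mice, so that the step could not be measured for them. *Kif23*, a kinesin of cytokinesis, was the 1 gene with an unadjusted p below 0.05 (fitted log2 fold change -0.46, adjusted p = 0.431). It was not well above background on any 8 Gy array. *Mki67*, the proliferation marker, lay at 5.48, 5.64 and 5.17 at 4 Gy and at 4.80, 5.36 and 5.63 at 8 Gy, with overlapping groups. Its mean at 0 Gy was 8.25. *Top2a*, topoisomerase II alpha, was not well above background in any mouse at 4 or 8 Gy. Among 27 replication genes, 3 had an unadjusted p below 0.05 and all were lower. These were *Mcm2*, of the replicative helicase, the dUTPase gene *Dut* and *Cdc45*, with -0.72, -0.60 and -0.65 (adjusted p = 0.409, 0.372 and 0.431). *Cdc45* was not well above background on any 8 Gy array. *Mcm3* had 0.08 (adjusted p = 0.922). Of 22 tested genes of damage signalling and repair, *Atr* (-0.61), *Rad18* (-0.82) and *Polh* were lower and *Ddias* (0.62) higher at an unadjusted p below 0.05. *Atr* lay at 10.41, 10.29 and 10.25 at 4 Gy and at 9.28, 9.67 and 10.15 at 8 Gy, so that the groups did not overlap but mouse 25 lay close to the 4 Gy mice (adjusted p = 0.318). *Atm*, the other kinase of the break response, had -0.24 (95% interval -0.56 to 0.09, adjusted p = 0.601).

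Genes of cytotoxic lymphocytes had lower levels at 8 Gy in most members, short of the test. Of 12 NK cell and cytotoxic granule genes, 7 had an unadjusted p below 0.05, all lower. For 9 of 12 all 8 Gy mice lay below all 4 Gy mice, and for 1 above them (9.51% and 8.44% over all probes). The list median was -0.46, and -0.49 over the 9 genes measured at both doses. The summed level of the list was 7.39 to 7.59 in the 4 Gy mice and 6.91 to 7.09 in the 8 Gy mice (log2 of the mean intensity of its members). *Ccl5*, a chemokine of T and NK cells, lay at 9.70, 9.77 and 9.59 at 4 Gy and at 9.04, 9.10 and 9.17 at 8 Gy. The groups lay apart by more than the spread within either (log2 fold change -0.58, 95% interval -0.95 to -0.22, adjusted p = 0.295). *Gzmb*, which encodes the protease granzyme B, lay at 7.01, 6.83 and 6.89 at 4 Gy and at 6.32, 5.58 and 6.13 at 8 Gy (-0.90, -1.44 to -0.36, adjusted p = 0.292). *Klrd1*, *Gzma*, *Nkg7* and *Xcl1* had -0.49, -0.56, -0.44 and -0.57 (adjusted p = 0.284 to 0.387). The first gene of the list, *Ncr1*, an activating NK receptor, was not well above background in any of the 6 mice, and the next, *Klrb1c*, had -0.43 (95% interval -0.90 to 0.04). *Prf1*, of perforin, went the other way with 0.29. The list median was between -0.61 and -0.27, the latter with a normexp offset of 50, in the main analysis and the 16 alternatives.

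**Figure D4:**
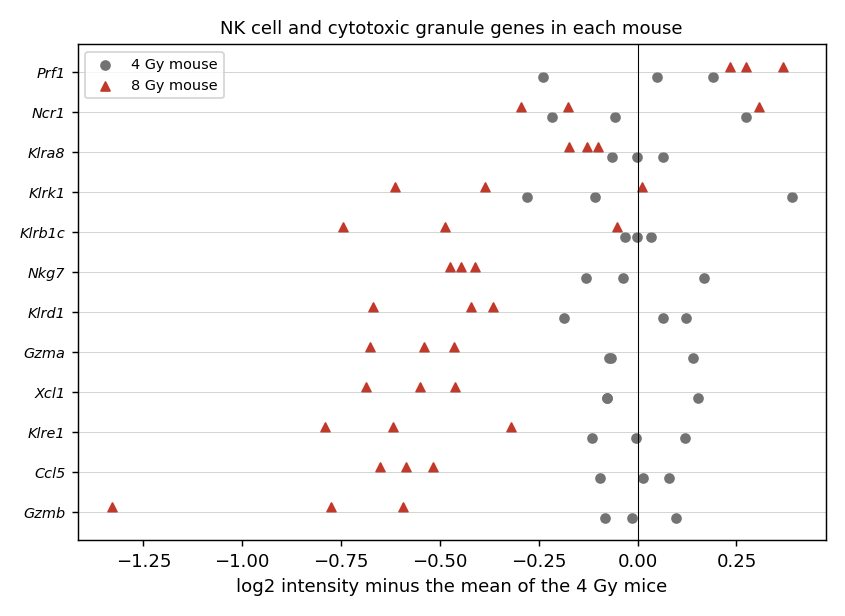
Log2 intensity minus the mean of the 4 Gy mice (x axis) for the 12 NK cell and cytotoxic granule genes (rows, ordered by fold change). Grey circles are the 4 Gy mice and red triangles the 8 Gy mice. For 9 genes, *Ccl5* and *Gzma* among them, all triangles lie to the left of all circles, and for *Prf1* they lie to the right. Over all probes the shares were 9.51% and 8.44%.

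T cell genes did not move as a group. *Cd3d*, of the T cell receptor complex, lay at 7.82, 7.80 and 7.56 at 4 Gy and at 6.82, 6.85 and 6.72 at 8 Gy, with no overlap (log2 fold change -0.93, 95% interval -1.44 to -0.42, adjusted p = 0.263). Its other probe had -0.79 (adjusted p = 0.292). *Cd3e*, of the same complex, lay at 7.96, 7.87 and 8.02 at 4 Gy and at 7.90, 8.12 and 7.93 at 8 Gy, with overlapping groups (0.03, 95% interval -0.80 to 0.87). *Cd2*, an adhesion molecule of T and NK cells, was not well above background on any 8 Gy array (fitted log2 fold change -0.98, adjusted p = 0.159). It passed without 8 Gy mouse 5 (-1.23, adjusted p = 0.0227), and with a normexp offset of 50 its fitted change was -0.43 (adjusted p = 0.147). *Cd4* had 0.63 (adjusted p = 0.356). In all, 4 of 12 T cell genes were lower and 1 higher at an unadjusted p below 0.05. The median was -0.17, but 0.03 over the 9 genes measured at both doses, and over all 12 it was -0.04 without 8 Gy mouse 25 and -0.32 without 8 Gy mouse 15. The summed level ran from 9.51 to 9.65 at 4 Gy and from 9.70 to 10.1 at 8 Gy, and *Zap70*, a kinase of the receptor, weighed most in it with means of 12.67 and 12.91.

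The B cell list was close to its detection limit. Of 13 tested members, 6 were not well above background in any of the 6 mice, *Ms4a1* (CD20) and *Cd79a* of the B cell receptor among them, so that the step from 4 to 8 Gy could not be measured for these genes. *Ms4a1* and *Fcmr*, an immunoglobulin M receptor, had an unadjusted p below 0.05, and neither was well above background in any of the 6 mice. The summed level was 5.74 to 5.90 at 4 Gy and 5.51 to 5.64 at 8 Gy. *Ms4a1* had a mean of 7.13 at 0 Gy, where it was measured. MHC class II genes, which antigen-presenting cells use to show peptides to T cells, had the lowest median of all lists, -0.68, and all 10 were lower. *H2-Aa* lay at 8.18, 9.31 and 8.71 at 4 Gy and at 7.64, 7.49 and 8.18 at 8 Gy. The groups nearly touched, and the log2 fold change was -0.96 (95% interval -1.72 to -0.20, adjusted p = 0.386). *H2-Ab1* and *H2-Eb1* had -0.87 and -1.03 (adjusted p = 0.426 and 0.403), and these were the 3 members with an unadjusted p below 0.05. The SD of *H2-Aa* was 0.56 at 4 Gy and 0.36 at 8 Gy. Without 4 Gy mouse 14 the list median was -0.43, with 0 genes at an unadjusted p below 0.05, and without 4 Gy mouse 4 it was -0.88, with 5.

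**Figure D5:**
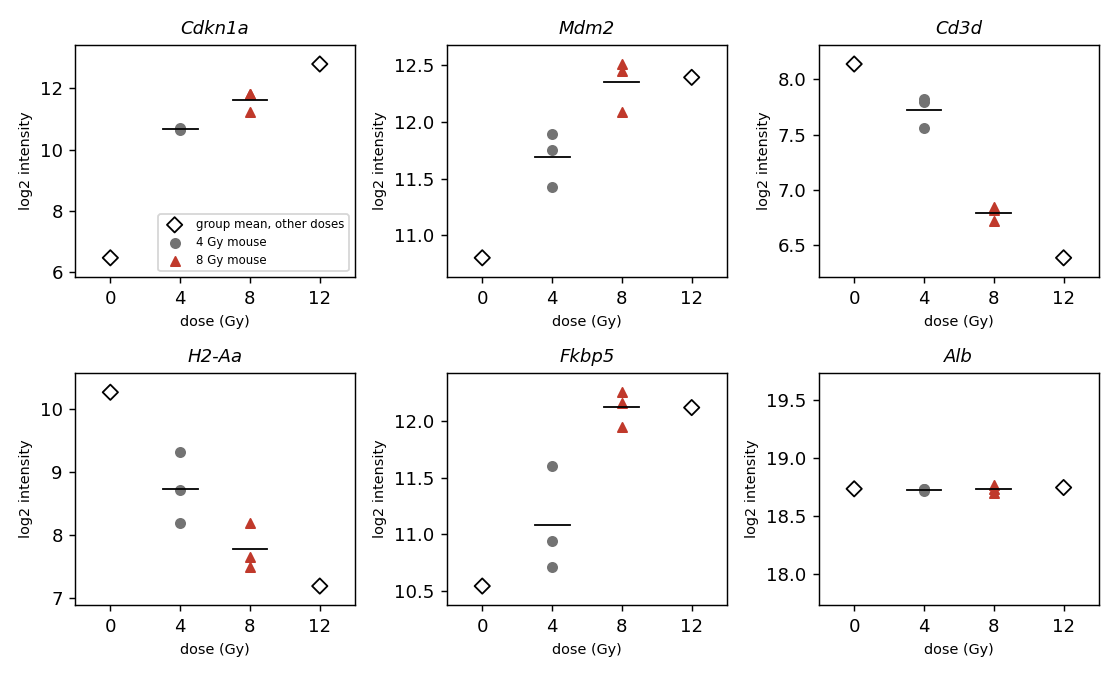
Log2 intensity (y axis, at least 2 units in each panel) against dose (x axis, evenly spaced) for 6 genes, each among the first 2 of its list. Circles and triangles are single mice at 4 and 8 Gy, bars their means, and diamonds the group means at 0 and 12 Gy. *Cdkn1a*, *Mdm2* and *Fkbp5* are higher and *Cd3d* and *H2-Aa* lower at 8 than at 4 Gy, none past adjustment, while *Alb* stays near 18.7.

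Myeloid cells and interferon targets gave no call either. The interferon list had a median of -0.34 with 19 of 21 genes lower, of which *Cxcl10* (-1.35), a chemokine that attracts T cells, and *Ifit2* (-0.45) had an unadjusted p below 0.05 (adjusted p = 0.413 and 0.429). The list median moved with single mice, to -0.14 without 8 Gy mouse 15, -0.16 without 4 Gy mouse 14 and -0.56 without 8 Gy mouse 25, where 0, 0 and 8 genes were lower at an unadjusted p below 0.05. *Cxcl10* lay at 8.50, 9.64 and 8.68 at 4 Gy and at 7.18, 6.80 and 8.78 at 8 Gy, where mouse 25 was within the 4 Gy range. *Isg15* and *Ifit1*, the first 2 genes of the list, had -0.34 and -0.51 (adjusted p = 0.573 and 0.497). Genes of Kupffer cells, the resident macrophages of the liver, lay close together, with 0 of 16 at an unadjusted p below 0.05 and log2 fold changes from -0.19 to 0.25. *Clec4f* had 0.04 (95% interval -0.19 to 0.28), and *Vsig4*, a complement receptor, had 0.25 (95% interval -0.18 to 0.68). Of the neutrophil genes, *S100a8* and *S100a9*, the subunits of calprotectin, had -0.83 and -0.53 (adjusted p = 0.410 and 0.522). *Ngp*, of neutrophil granules, was not well above background on any 4 Gy array (fitted log2 fold change 1.00, adjusted p = 0.430). At 8 Gy mouse 5 lay at 6.13 and mice 15 and 25 at 4.37 and 4.56.

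Globin levels at 8 Gy were not told apart from those at 4 Gy. *Hba-a1* lay at 11.31, 10.01 and 10.56 at 4 Gy and at 10.05, 9.99 and 10.66 at 8 Gy, against a mean of 15.97 at 0 Gy (log2 fold change -0.39, 95% interval -1.22 to 0.43, adjusted p = 0.757). *Hba-a2* had -0.55 (adjusted p = 0.662) and *Hbb-b1* -1.18 (95% interval -2.15 to -0.21, adjusted p = 0.405). All 5 tested globins were lower, and mice of the 2 doses overlapped in each. The list median of -0.63 was -0.34 without 4 Gy mouse 4. Globin genes are near-identical copies, so probes may share signal. *Alas2*, the first enzyme of haem synthesis in red cell precursors, had -0.09 (adjusted p = 0.917). *Hamp*, the gene of hepcidin, which limits iron uptake, and the related *Hamp2* had -0.03 and -0.06, with 95% intervals of -0.27 to 0.20 and -0.54 to 0.41.

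Hepatocyte genes were level as a list, with a median of 0.0033 and log2 fold changes from -0.15 to 0.42. *Apoa1*, the main protein of high-density lipoprotein, lay at 16.58, 16.51 and 16.35 at 4 Gy and at 16.80, 16.78 and 17.12 at 8 Gy (0.42, 95% interval 0.15 to 0.70, adjusted p = 0.310). It and *Tat*, tyrosine aminotransferase (0.34, adjusted p = 0.441), were the 2 members with an unadjusted p below 0.05. Of other liver cells, *Lyve1* of sinusoidal endothelium lay at 10.23, 10.20 and 10.20 at 4 Gy and at 10.94, 10.53 and 11.11 at 8 Gy (0.65, 95% interval 0.19 to 1.11, adjusted p = 0.342). *Stab2*, a scavenger receptor of the same cells, had -0.12 (adjusted p = 0.781), and *Fcgr2b* and *Oit3* had -0.47 and -0.72. Both of these had unadjusted p below 0.05. The stellate cell genes *Lrat* and *Reln* had 0.07 and 0.25, and the bile duct keratins *Krt19* and *Krt7* had 0.16 and 0.07 (adjusted p = 0.472 to 0.950). The bile duct list had a median of 0.07, with 1 of 7 genes higher and 1 lower at an unadjusted p below 0.05. Its summed level was lower at 8 Gy, with 9.193 to 9.449 in the 4 Gy mice and 8.682 to 9.055 in the 8 Gy mice. The pancreas acinar genes *Cpa1* and *Cela3b* lay near background, but their list had a median of 0.31 with 8 of 10 genes higher. Over the 5 genes measured at both doses the median was 0.15. At an unadjusted p below 0.05 there was 1, *Try5* (fitted 1.11, adjusted p = 0.295), near background at 4 Gy. The list median ran from 0.10 to 0.83 in the main analysis and the alternatives.

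Several genes that glucocorticoids induce had higher levels in the 8 Gy mice, short of the test. *Fkbp5*, a co-chaperone of the glucocorticoid receptor, had the lowest adjusted p of its list. It lay at 11.60, 10.71 and 10.94 at 4 Gy and at 12.16, 12.25 and 11.94 at 8 Gy, with no overlap (log2 fold change 1.04, 95% interval 0.61 to 1.46, adjusted p = 0.159). Mouse 4 was the highest of the 4 Gy mice, and without it *Fkbp5* was called (1.30, adjusted p = 0.0267). A dimmer probe had 0.30 (adjusted p = 0.658). *Zbtb16*, a zinc finger repressor, lay at 8.66, 8.86 and 7.68 at 4 Gy and at 9.83, 9.81 and 9.99 at 8 Gy (1.48, 95% interval 0.42 to 2.53, adjusted p = 0.347). Its dimmer probe had 1.44 (adjusted p = 0.159). *Tat* and *Tdo2*, of amino acid breakdown, had 0.34 and 0.26. *Tsc22d3*, which encodes the glucocorticoid-induced leucine zipper, had 0.09 (95% interval -0.40 to 0.59), so the list did not move together. Its median was 0.21, with 4 of 20 genes higher and 0 lower at an unadjusted p below 0.05. The median was 0.11 without 8 Gy mouse 25 (2 genes) and 0.31 without 8 Gy mouse 5 (3 genes).

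Genes of lipid handling pointed both ways. *Plin4* and *Plin5*, which coat lipid droplets, had log2 fold changes of 1.45 and 0.92 (95% intervals 0.64 to 2.26 and 0.39 to 1.44, adjusted p = 0.267 and 0.277). *Plin5* lay at 12.57, 12.17 and 12.32 at 4 Gy and at 13.19, 13.40 and 13.21 at 8 Gy. *Plin2* and *Plin3*, of the same family and the first of the list, had 0.14 and -0.20 (adjusted p = 0.877 and 0.814). *Lpin1*, a phosphatidate phosphatase, had 0.67. *Dgat2* and *Mogat1*, which make triglyceride, had -0.29 and -0.42. In the SREBP1 list, of fatty acid synthesis, 18 of 20 genes were lower, with a median of -0.31, and the summed level was 13.6 to 13.8 at 4 Gy and 13.3 to 13.5 at 8 Gy. Without 8 Gy mouse 25 the median was -0.14, and 6 genes in place of 2 lay above the median of all probes. *Srebf1* had -0.20 and *Fasn*, fatty acid synthase, -0.39 (adjusted p = 0.738 and 0.693). *Pnpla3*, a lipase of lipid droplets, was not well above background on any 8 Gy array (fitted log2 fold change -1.44, adjusted p = 0.342). Its dimmer probe had 0.23. The fitted log2 fold change of the brighter probe ran from -2.93 to -0.62 over the main analysis and the alternatives. Cholesterol synthesis genes had a median of -0.30 with 21 of 24 lower, but the 8 Gy mice differed widely. Their summed levels were 14.48, 13.80 and 13.40 in mice 5, 15 and 25, against 13.90 to 14.23 at 4 Gy. *Srebf2*, the transcription factor of this pathway, had -0.27 (adjusted p = 0.757). The list median was -0.71 without 8 Gy mouse 5, with 13 genes lower at an unadjusted p below 0.05, and -0.0031 without 8 Gy mouse 25, with 0.

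Immediate early genes varied more between mice than between doses. *Fos* lay at 6.68, 10.38 and 12.10 at 4 Gy and at 6.65, 10.64 and 10.35 at 8 Gy, a spread within each dose that left its log2 fold change of -0.51 between -4.13 and 3.11. *Fosb* had -0.96 (95% interval -2.66 to 0.74). The summed level of the list followed the mouse numbers. It was lowest in the mouse numbered 1 to 6 and highest in the mouse numbered 21 to 26 at each of the 6 doses, with 10.78, 11.81 and 12.23 at 4 Gy and 10.85, 11.73 and 11.93 at 8 Gy. With these sets of numbers as a term in the model, the standard error of *Fos* was 0.56 in place of 1.69, and its adjusted p was 0.801. The labels do not say what the sets stand for. In contrast, *Fosl2*, of the same AP-1 family, lay at 7.58, 7.57 and 7.56 at 4 Gy and at 7.96, 8.24 and 8.08 at 8 Gy (0.53, 95% interval 0.23 to 0.82, adjusted p = 0.269). The acute phase genes *Saa1* and *Saa2*, whose means were 13.95 and 13.30 at 0 Gy, had means of 17.79 and 17.28 at 4 Gy and log2 fold changes of 0.08 and -0.08 (95% intervals -0.77 to 0.94 and -1.05 to 0.89). *Il1r1*, the receptor of interleukin 1, had 1.02 (95% interval 0.37 to 1.66, adjusted p = 0.297). Of 17 circadian clock genes, 0 had an unadjusted p below 0.05, and *Arntl* and *Clock* had -0.25 and 0.12.

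Most of the remaining metabolic lists had medians close to that of all probes. Cytochrome P450 genes had a median of -0.07, with 1 of 40 genes at an unadjusted p below 0.05, *Cyp2c54* (-0.55), and *Cyp1a1* and *Cyp1a2* had -0.18 and -0.25. Phase II genes had a median of -0.0018, in which *Gsta2* had 0.56 (95% interval -0.17 to 1.29), *Mgst1* had -0.31 and *Gstk1* and *Sult1d1* had 0.38 and 0.43. The NRF2 list had -0.01, with *Nfe2l2* and its inhibitor *Keap1* at 0.01 and -0.08. Bile acid genes had a median of 0.01, and *Cyp7a1*, the rate-limiting enzyme of bile acid synthesis, lay at 13.51, 13.50 and 13.42 at 4 Gy and at 13.79, 13.53 and 13.80 at 8 Gy (0.23, 95% interval -0.32 to 0.78), while *Cyp8b1*, a hydroxylase of the same pathway, had -0.05. PPAR alpha targets had a median of 0.02, with *Ppara* at -0.56 and *Cpt1a* at 0.18. For glucose production, *Pck1* and *G6pc* had 0.11 and 0.21. Chaperones of the endoplasmic reticulum and other genes of the unfolded protein response had a median of 0.18, and 17 of 22 lay above the median of all probes. At an unadjusted p below 0.05, 3 were higher and 1 was lower. The summed level was 12.83 to 13.17 at 4 Gy and 13.27 to 13.42 at 8 Gy. The median was 0.08 with the processed signal scaled to the 75th percentile, where the median of all probes was 0.051, 0.07 with the series values and 0.10 without 8 Gy mouse 5. The first 2 members were *Hspa5* at 0.27 (95% interval -0.07 to 0.61) and *Hsp90b1* at 0.15, the latter with mouse 24 missing. The growth hormone axis had a median of 0.16, with 4 of 17 genes higher and 0 lower at an unadjusted p below 0.05, and a median of 0.0015 with the series values and 0.03 without 8 Gy mouse 15. *Igfbp2*, which binds insulin-like growth factor, lay at 14.86, 14.97 and 14.91 at 4 Gy and at 15.43, 15.27 and 15.48 at 8 Gy (0.48, 95% interval 0.23 to 0.73, adjusted p = 0.231). *Bcl6*, *Egfr* and *Stat5a* had 1.15, 0.69 and 0.36 (adjusted p = 0.292 to 0.369). *Ghr* and *Igf1* themselves had -0.10 and 0.16 (95% intervals -0.34 to 0.15 and -0.08 to 0.39).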

How the data were processed

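The authors hybridized liver RNA to 1-colour Agilent mouse arrays, 1 array per mouse, and extracted spots with Agilent Feature Extraction 11.5.1.1. The deposited scanner tables give a median intensity for every spot and another for the background around it, and the arrays had not been normalized to each other. The authors' deposited series values are linear intensity values with a 75th percentile of 1.00 to 1.01 per array, and how they were made is not given in the sources used here. In R 4.3.3 with limma 3.58.1, median intensities were corrected by normexp (offset 0), controls were dropped, outlier spots were set to missing, the 18 liver arrays were quantile-normalized, and log2 values were averaged per probe. The 6 doses were fitted together with empirical Bayes moderation, and the contrast 8 Gy minus 4 Gy was adjusted by the Benjamini-Hochberg method over all probes tested. All adjusted p values are from this model unless an alternative is named. The numbers of mice and of arrays limit the precision. Symbols came from RefSeq accessions for 34566 of 56605 probes. For a probe not well above background on any array of a group, a fold given as at least a value is a limit against background. For list genes of this kind the fitted change is given instead. The brighter mean was divided by the dimmer, with each dim array set no lower than its detection level. The detection level is the dimmest signal that was still well above background. The limit does not allow for the spread between mice or for the processing, and the fold can be smaller than it.

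Members and gene lists were chosen with earlier results of these data known. The rule for naming genes took the largest called changes with a gene symbol, of which there were none, and the first 2 genes of each list. All other genes named were chosen after their values were seen. *Gsta1* and *Ahsp*, each among the first 2 of its list, had no matched probe. Scripts were tested on simulated data. Figures were drawn in Python 3.11.15 with matplotlib 3.10.9. Some list genes are not reported here by name.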

Additional observations from a re-analysis of the deposited data

How the results depend on the processing

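The number of called probes was 2 in the main analysis. It was 0 with the 6 arrays normalized and fitted alone, 1 from the authors' series values, 2 with a normexp offset of 50, with the 75th percentile scaling and without a filter on dim probes, 3 with probes averaged over each transcript, 5 with the processed signal quantile-normalized (2 higher, 3 lower), 5 with the slide as a term and 6 among probes well above background on all arrays of 4 or of 8 Gy. With outlier spots kept, an alternative chosen after seeing the data, it was 0. The called probes were not always the same. Of the 2 called in the main analysis, 0 were called with the offset of 50 or from the series values. Only AK017113 was called with the 75th percentile scaling, the processed signal quantile-normalized and the stricter filter on background. It met that filter only through the 8 Gy arrays, where it was higher, so its call there is no separate support. Both probes of the main analysis were called without a filter and with the slide as a term. They were not followed with probes averaged over each transcript. Leaving out each mouse in turn gave 0 to 24 called probes and 0 to 28 that passed. The number that passed equalled the number called in each alternative that kept every mouse, except that 10 passed with the offset of 50. At an unadjusted p below 0.05, 7.32% to 13.8% of probes were found in the main analysis and all alternatives. Lists were not evaluated with probes averaged over each transcript. No list gene passed in the other alternatives that kept every mouse, and 1 did without 4 Gy mouse 4 (*Fkbp5*) and 1 without 8 Gy mouse 5 (*Cd2*). The probe of ENSMUST00000188596.2 changed sign with the processed signal quantile-normalized (-0.090) and with the authors' series values (-1.41). The median over all probes was at most 0.051 from 0 under any scaling. The causes were not tested. The mice at 4 and 8 Gy carry different numbers in the labels, so that no replicate numbers are shared. The numbers fall into sets (1 to 6, 11 to 16, 21 to 26) with 1 mouse per dose, and a replicate block on these sets was added after seeing the data. It gave the same 2 called probes (adjusted p = 0.0493 each), 3863 probes at an unadjusted p below 0.05 and 0 list genes that passed. Across 36984 probes, deviations from the dose means correlated between 4 and 8 Gy mice of the same set at 0.0635, -0.0224 and -0.0269. The sets were therefore not taken to pair these mice in the main model. A correlation over all probes cannot exclude that some genes follow the sets, as the summed level of the immediate early list did. No mouse could be tested as an outlier, since each dose had 3.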
